A study of Rattus norvegicus with 20 samples.

Results

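The 11 ovary arrays described here are those on which the probes for both Cyp17a1 and Akr1c3 (Akr1c18 on the array design) read above 0, on a scale of log2 processed signal minus the log2 75th percentile of the array. They were taken from the 16 arrays at 0, 20 and 60 mg/kg/day, in a series of 20. The 8 exposed arrays were replicates 1, 3 and 4 at 20 mg/kg/day and replicates 1, 2, 3, 4 and 6 at 60 mg/kg/day, pooled into 1 group. The 3 control arrays were replicates 1, 2 and 4 at 0 mg/kg/day. Because Cyp17a1 and Akr1c3 chose the arrays, their values are given as a description only.

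All animals were female Sprague Dawley offspring killed at 46 days of age, and each array held RNA of the entire ovaries of 1 animal, with animals from independent litters. The exposed offspring came from dams fed a brominated flame retardant mixture from before mating until weaning at postnatal day 21. By share, BDE-209 made up 44.2% of that mixture, hexabromocyclododecane 3.3%, DE-71 52.1% and DE-79 0.4%, in diets with 250 or 750 mg/kg for the 20 and 60 mg/kg/day groups. The control dams ate the same kind of diet with 0 mg/kg. The doses are those planned for the dam, and the labels give no stage of the cycle for any animal.

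The ovary changes in composition through each oestrous cycle. Cyp17a1, the enzyme that makes androgens in theca and interstitial cells, is known to be shut down in follicles after the surge of luteinising hormone (LH), and Akr1c3 encodes the rat enzyme that inactivates progesterone in older corpora lutea. The LH surge itself sets off a brief wave of growth factor, transcription factor and protease genes that precedes ovulation. In bulk RNA of whole ovaries, fewer cells of a type and less RNA per cell cannot be told apart.

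Cyp17a1 read 3.47, 3.13 and 3.33 on the control arrays, and 2.05, 3.13 and 3.86 as the lowest, median and highest of the 8 exposed arrays. Akr1c3 read 7.02, 5.95 and 6.69 on the controls, and 5.28, 5.72 and 6.73 on the exposed arrays in the same order. Both genes were therefore high on all 11 arrays, and the groups overlapped for both, although Akr1c3 was below all controls on 6 of the 8 exposed arrays. Among the arrays at 0, 20 and 60 mg/kg/day that were left out, 4 had Cyp17a1 between -3.52 and -2.62, and 1, control replicate 5, had Akr1c3 at -4.23. No array lay near the limit: the lowest values inside it were 2.05 for Cyp17a1 and 5.28 for Akr1c3. At 0.06 mg/kg/day, replicates 3 and 5 also met both limits, and they serve below as arrays that the comparison did not use.

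**Figure D1:**
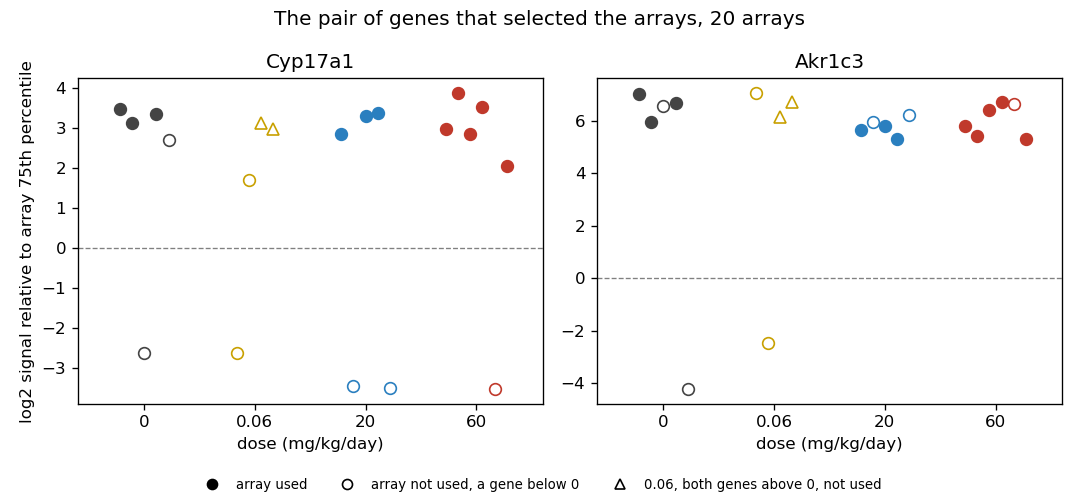
Log2 signal of Cyp17a1 and Akr1c3 relative to the array's 75th percentile (vertical axes) on all 20 arrays by dose in mg/kg/day (horizontal axes). Filled circles are the 11 arrays compared, open circles are arrays with 1 of the genes below 0 (dashed line), and triangles are the 2 arrays at 0.06 mg/kg/day that met both limits; used arrays read 2.05 to 3.86 for Cyp17a1.

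The mean levels of LH surge genes and immediate early genes, which change with the cycle, were higher in the control group, though no single gene of either list passed the adjusted threshold. Control replicate 1 was the highest array for both lists, and for immediate early genes the other control arrays lay within the exposed range. The ovary markers were present: Star, Cyp11a1, Lhcgr, Amh, Inha, Fshr, Gdf9 and Zp3 were all well above background on all 11 arrays, while no probe for Foxl2, a granulosa cell factor, was kept. The arrays are therefore matched in the sense of the rule, both genes above 0, and not in the levels of the surge genes.

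The arrays were even in signal coverage, but not in their spike-in controls. Between 75% and 83.4% of spots were well above background on the 11 arrays, 0 spots were saturated, and 23589 probes entered the tests, each called well above background in 3 or more of these arrays. Control arrays lay on slide 1 (2 arrays) and slide 3 (1 array), with 0 on slide 2, which held 2 exposed arrays. The slope fitted to the spike-in controls was 0 on control replicate 4, on replicates 1 and 3 at 20 mg/kg/day, and on replicates 3, 4 and 6 at 60 mg/kg/day. It was 1.02 to 1.06 on the rest of the matched arrays, and this split is the spike-in set. The first principal component took 30.7% of the variance and 84.3% of it was explained by slide. The second took 21.6%, of which exposure explained 53.1%, the spike-in set 44.0% and slide 26.3%. Control replicate 1 was the furthest out on it, at 68.2, with control replicates 2 and 4 at 27.2 and 6.86. The groups overlapped there, as replicate 1 at 60 mg/kg/day scored 14.5. The median residual SD per probe was 0.24 log2 on the 11 arrays and 0.27 on all 16 arrays at 0, 20 and 60 mg/kg/day, and 60.1% of probes had the smaller SD on the 11.

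No probe passed an adjusted p of 0.05 in the pooled comparison of the 8 exposed arrays with the 3 controls (limma with Benjamini-Hochberg adjustment), so all differences that follow are values that did not pass. The lowest adjusted p was 0.0549. At an unadjusted p under 0.05, 2928 of 23589 probes (12.4%) differed, 1591 of them higher (6.74%) and 1337 lower (5.67%) in the exposed ovaries. The groups did not overlap for 2.62% of probes, with 315 above (1.34%) and 302 below (1.28%) all controls. Without control replicate 1 the unadjusted count was 1408 (5.97%), while 30 probes then passed the adjusted threshold, 4 higher and 26 lower. With all arrays at 0, 20 and 60 mg/kg/day, 1619 of 24026 probes (6.74%) were under an unadjusted p of 0.05, 3.73% higher and 3.01% lower, and 3 (0.0125%) passed after adjustment.

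2 of those 3 probes belong to 2200002J24Rikl, a gene without an assigned function in its name, which the naming rule left out and which was chosen after its values were seen; the third has no gene name here. 2200002J24Rikl read -6.45, -6.27 and -6.83 on the controls, and -5.03, -4.52 and -3.82 as the lowest, median and highest exposed values. All 8 exposed arrays were above all 3 controls. The difference was 2.08 ± 0.26 log2 (SE; adjusted p 0.0549), or 4.23-fold, on the 11 arrays and 2.08 ± 0.27 (adjusted p 0.0219) on all arrays of the 3 doses. At 20 mg/kg/day it was 1.84 and at 60 mg/kg/day 2.23, both against the same controls. Of the arrays at 0.06 mg/kg/day, replicate 3 read -4.31, within the exposed range, and replicate 5 read -6.38, within the control range.

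Of the named genes, the 12 lower in exposed ovaries were led in size by granzymes. Gzmb, granzyme B, a serine protease of cytotoxic lymphocytes, read -0.83, -0.93 and -0.20 on the controls and -4.63, -3.51 and -2.44 (lowest, median, highest) on the exposed arrays. Every exposed array was below every control. The difference was -2.90 ± 0.44 log2, 7.48-fold lower, with an adjusted p of 0.0723. Gzmc, granzyme C, read -1.53, -1.55 and -0.44 on controls against -4.42, -3.50 and -2.89 on exposed arrays. It was -2.35 ± 0.33 log2, or 5.09-fold, lower (adjusted p 0.0549), while 1 of 2 further probes for it was higher instead. Perforin (Prf1), the pore protein released with granzymes, was lower by -0.78 ± 0.16 log2 (adjusted p 0.148), again with all 8 exposed arrays below the controls. The lymphocyte list was mixed: of its 16 measured genes 10 were below and 6 above the control mean, with a median of -0.16 log2. At an unadjusted p under 0.05, 3 were lower and 1 higher (6.52% and 8.40% of all genes). Without control replicate 1, 4 were lower and 0 higher (3.98% and 3.12% of all genes), and the median was -0.23. Cd4 was 0.52 ± 0.19 higher (adjusted p 0.296).

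The rest of the lower group was varied and held some genes of secreted proteins and of lipid metabolism. Mfge8, a secreted protein that tethers dying cells to phagocytes, read 5.77, 4.50 and 4.96 on the controls and 2.91, 3.34 and 3.95 on the exposed arrays, a difference of -1.67 ± 0.27 (adjusted p 0.0723). Apoa1, the main protein of high-density lipoprotein, read -0.35, -0.81 and -0.39 against -3.22, -2.54 and -1.65, a difference of -1.88 ± 0.30 (adjusted p 0.0723). Fasn, fatty acid synthase, read 1.95, 2.09 and 1.92 against 1.11, 1.28 and 1.69, a difference of -0.69 ± 0.12 (adjusted p 0.0814). In none of these 3 genes did the groups overlap. The sulfotransferase gene Chst1 was 1.46-fold lower and Klhl8, an adaptor of a ubiquitin ligase, 1.45-fold lower.

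Wnt16, a secreted Wnt ligand, was -2.17 ± 0.35 lower (adjusted p 0.0723), and Nrcam, a cell adhesion protein, -2.05 ± 0.28 (adjusted p 0.0549). Spata2L, with a lowest adjusted p also of 0.0549, was -0.93 ± 0.12 lower. These 3 probes were not well above background on any exposed array, so their folds were taken over a floor. They were 1.5-fold for Wnt16, 1.38-fold for Nrcam and 1.65-fold for Spata2L. The floor is the dimmest signal called well above background on an exposed array, or the probe's reading where that is brighter. These folds are not lower limits, because in other settings the differences were as small as -0.19, -0.11 and -0.12 log2 in the same order. Tpd52l1 was -1.08 ± 0.16 lower and Gna14, a G protein alpha subunit, -0.71 ± 0.11, both with an adjusted p of 0.0641.

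On the higher side, Pzp differed most. It encodes a broad protease inhibitor of the alpha-2-macroglobulin family and read -4.14, -2.54 and -3.68 on controls against -1.91, 0.07 and 1.33 on exposed arrays. The groups did not overlap, and the exposed mean was 3.31 ± 0.66 log2 higher, or 9.94-fold, with an adjusted p of 0.145. Its relative A2m was 0.89 ± 0.32 higher with 5 of 8 exposed arrays above all controls (adjusted p 0.292). Scara5, a ferritin receptor, was not well above background on any control array and was on all 8 exposed arrays. Its difference was 1.53 ± 0.25 log2, or 2.88-fold (adjusted p 0.0723). That fold is an estimate from dim control readings, and the difference was as low as 0.39 log2 in another setting.

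Ptpn22, a phosphatase that restrains antigen receptor signals, was 2.95-fold higher (-4.81, -3.46 and -4.09 on controls; -3.25, -2.55 and -2.00 on exposed arrays; adjusted p 0.135). Mdga2, a membrane-anchored adhesion protein, was 1.46 ± 0.23 log2 higher (adjusted p 0.0723), and Vegfd, a lymphatic vessel growth factor, 1.32 ± 0.22 (adjusted p 0.0814). Acot4, a peroxisomal thioesterase, was 1.18 ± 0.19 higher (adjusted p 0.0723). Tnnt2, a troponin of muscle thin filaments, read 0.77, 0.81 and 0.84 on controls and 1.17, 1.57 and 1.97 on exposed arrays, a difference of 0.78 ± 0.13 (adjusted p 0.0814). The 3 controls lay within 0.1 log2 of each other for Tnnt2 and all exposed arrays stood above them. The ubiquitin ligase gene Trim50 was 0.94 higher, the sodium-proton exchanger gene Slc9a5 0.77, the basement membrane protein gene Tinagl1 0.72, Hacd4 of fatty acid elongation 0.50 and the caspase gene Casp12 0.39.

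In all 24 of these genes, the 8 exposed arrays lay beyond the 3 controls, their sizes ran from 0.39 to 3.31 log2, and their adjusted p from 0.0549 to 0.145. This follows in part from how they were taken, as the 12 of smallest p in each direction. Since the groups do not overlap, the sign within a slide or at 1 dose is fixed by that choice. The arrays at 0.06 mg/kg/day were not used to choose the genes. Replicate 3 was nearer the exposed than the control mean for 12 of 12 higher genes and 11 of 12 lower genes. Replicate 5 was nearer the control mean for 8 of the 12 higher and 3 of the 12 lower genes. Over the 2928 probes under an unadjusted p of 0.05, replicate 3 was nearer the control mean for 8.78% (33.8% of all other probes) and replicate 5 for 50.3% (50.5% of all other probes). Replicate 3 was thus mostly nearer the exposed arrays, while replicate 5 lay on neither side. However, replicate 3 lay on slide 2, which held exposed arrays and 0 controls of the comparison, and its spike-in slope was 0. Replicate 5 lay on slide 3, with a slope of 1.03. The part of slide and spike-in set in these positions was not tested.

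**Figure D2:**
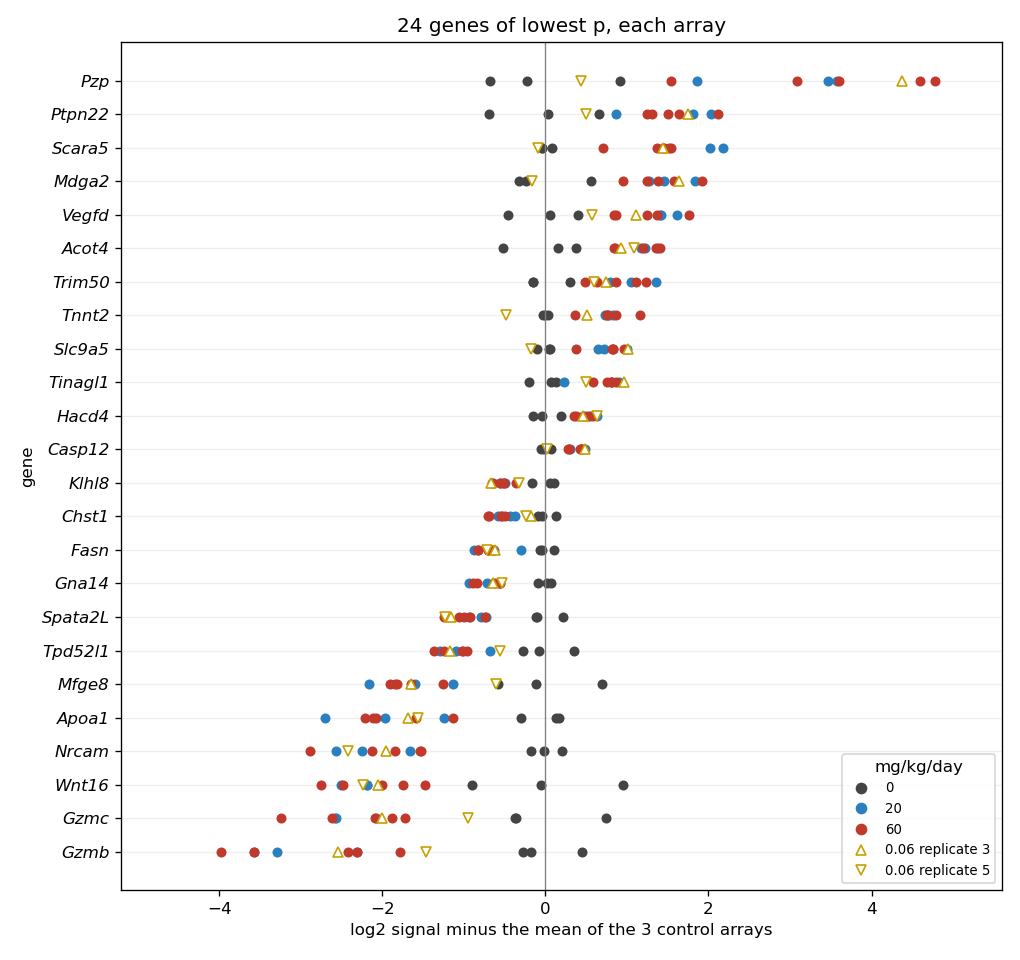
Log2 signal minus the mean of the 3 control arrays (horizontal axis) for the 12 higher and 12 lower genes of smallest p (vertical axis). Filled circles are the 3 control arrays, 3 arrays at 20 and 5 at 60 mg/kg/day; open triangles are the 2 arrays at 0.06 mg/kg/day that met both limits. Exposed and control circles do not overlap for any of the 24 genes.

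Genes known to respond to the LH surge were lower in the exposed ovaries. Of 23 genes in the list 16 were measured, 12 were below the control mean (50.6% of all genes were above it), and 8 were lower and 0 higher at an unadjusted p under 0.05, where 6.52% of all 12723 genes tested were lower and 8.40% higher. The median was -0.56 log2, against 0.00 over all genes. The mean level of the list was -1.14, -1.74 and -1.55 on the controls and -2.22, -2.03 and -1.85 (lowest, median, highest) on the exposed arrays, so the groups did not overlap. Control replicate 1 was the highest of the 11 arrays. Without it the median was -0.35 and 6 genes were lower at that threshold, against 3.98% of all genes.

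Rgs2, a brake on G protein signals, read 4.12, 1.86 and 1.63 on the controls against 0.25, 0.73 and 1.69 on the exposed arrays, a difference of -1.75 ± 0.47 (adjusted p 0.203). Snap25, a vesicle fusion protein, was -1.87 ± 0.39 lower (adjusted p 0.149) with no overlap, and Cd44, the hyaluronan receptor, -1.25 ± 0.38 (adjusted p 0.24). Areg, the EGF-like growth factor that relays the LH signal to the cumulus, read -0.25, -1.86 and -3.10 on controls and -5.03, -4.63 and -0.65 on exposed arrays. The groups overlapped through 1 high exposed array. Hpgd, which breaks down prostaglandins, and the prostaglandin receptor genes Ptger2 and Ptger4 were also lower, by -0.92, -0.50 and -0.31 log2.

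Immediate early genes, the first transcripts to appear after a stimulus, showed the same direction. All 20 of the list were measured and 19 were below the control mean, where 50.6% of all genes were above it. At an unadjusted p under 0.05, 10 were lower and 0 higher (6.52% and 8.40% of all genes). The median was -0.72 log2. The mean level of the list was 0.37 on control replicate 1, and -0.95 and -1.21 on replicates 2 and 4. The exposed arrays ran from -1.73 through a median of -1.59 to -0.83. Control replicate 1 stood alone at the top, and replicates 2 and 4 lay within the exposed range. Without replicate 1 the median was -0.33 and 3 genes were lower, against 3.98% of all genes.

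Fosl1, a Fos-related subunit of the transcription factor AP-1, read 0.60, -1.74 and -2.67 on the controls and -6.07, -5.57 and -1.82 on the exposed arrays. The difference was -3.53 ± 0.96 log2 (adjusted p 0.205), and 7 of 8 exposed arrays were below all controls; replicate 4 at 20 mg/kg/day was the exception. Fosl2, another Fos-related subunit, was -1.06 ± 0.30 lower with no overlap (adjusted p 0.213). Klf6, a zinc finger factor, was -0.73 ± 0.20 lower. Plaur, the urokinase receptor from the protease list, read -0.83, -3.02 and -3.23 on controls and -4.32, -3.94 and -3.26 on exposed arrays, with control replicate 1 far above the other two.

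AP-1 subunits were among the lower genes, so its binding motif was searched in the RefSeq promoters of GRCr8, each 250 bases before to 50 after a gene's start. The letters were TGAGTCA, read on both strands, where the other strand reads TGACTCA. They occurred in 4.53% of 27457 promoters and in 3.75% of the 10403 promoters of tested genes. Of genes lower at an unadjusted p under 0.05, 42 of 662 promoters held it (6.34%), and of genes higher, 31 of 868 (3.57%). It was in 0 of 14 promoters of the immediate early list and in 1 of 13 of the LH surge list. A second motif, GCGTG, the core to which the AhR receptor binds, was searched as well. It was in 45.8% of the promoters of tested genes, 47.6% of those of lower genes and 45.4% of those of higher genes. These shares are given without a test, and a match is a description of the letters. Among the 24 named genes, 18 had a promoter in the table, and the AP-1 motif was in 2 of 8 lower genes, Gzmb and Wnt16, and in 0 of 10 higher genes. The sequences below are the 160 bases before the start of 3 genes described above, with the motif in capitals: Gzmb and Plaur as lower genes with it, and 2200002J24Rikl as the gene with the smallest p, which was higher and holds it too. They lie in GRCr8 at chr15:34462470-34462629 (minus strand), chr1:89181203-89181362 (plus strand) and chr1:95075566-95075725 (plus strand), and are written 5′ to 3′.
Gzmb: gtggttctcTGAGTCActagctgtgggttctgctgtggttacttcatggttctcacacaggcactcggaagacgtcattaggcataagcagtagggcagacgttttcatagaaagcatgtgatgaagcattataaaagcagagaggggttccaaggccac
Plaur: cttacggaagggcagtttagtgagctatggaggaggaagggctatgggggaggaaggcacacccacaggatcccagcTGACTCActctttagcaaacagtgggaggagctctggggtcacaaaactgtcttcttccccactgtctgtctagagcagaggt
2200002J24Rikl: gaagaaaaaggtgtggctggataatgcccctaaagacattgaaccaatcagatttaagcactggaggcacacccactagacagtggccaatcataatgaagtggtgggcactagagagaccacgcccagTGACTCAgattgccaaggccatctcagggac

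The first base of the motif lay 151 bases before the start in Gzmb, 83 in Plaur and 31 in 2200002J24Rikl. The same letters thus stood before genes on both sides of the comparison.

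Macrophage and monocyte markers were higher in the exposed ovaries. All 20 were measured, 18 were above the control mean, and 10 were higher and 0 lower at an unadjusted p under 0.05 (8.40% of all genes were higher), with a median of 0.52 log2. With slide as a block 6 were higher, against 7.99% of all genes. The list's level was -0.57, -0.30 and -0.37 on the controls and -0.34, 0.05 and 0.31 on the exposed arrays, where the lowest, replicate 1 at 60 mg/kg/day, overlapped the controls. Cd163, the haemoglobin scavenger receptor of tissue macrophages, read -3.97, -4.01 and -3.69 on controls and -3.63, -2.63 and -1.96 on exposed arrays. All 8 exposed arrays were above the controls, by 1.18 ± 0.28 on average (adjusted p 0.181). Lyz2, lysozyme, was 0.65 ± 0.20 higher and Aif1, an actin-binding macrophage protein, 0.59 ± 0.19 (adjusted p 0.24 and 0.256). Cd68 was 0.55 ± 0.26 higher (adjusted p 0.424). Without control replicate 1, 3 of the 20 genes were higher at that threshold, against 3.12% of all genes, and the median was 0.35.

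Smooth muscle genes were higher as well. Of 15 genes 14 were measured, 12 were above the control mean and 10 were higher, 0 lower, at an unadjusted p under 0.05 (8.40% of all genes were higher); the median was 0.41 log2. The list's level was -0.38, -0.12 and -0.29 on controls against -0.07, 0.13 and 0.25 on the exposed arrays, without overlap. Tpm2, a tropomyosin, was 0.46 ± 0.12 higher, and Actg2, the enteric smooth muscle actin, 0.43 ± 0.12 (adjusted p 0.198 and 0.221). Myh11, the smooth muscle myosin heavy chain, was higher on all 8 exposed arrays by 0.41 ± 0.14 (adjusted p 0.28). Without control replicate 1, 7 of the 14 genes were higher at the same threshold, against 3.12% of all genes. With slide as a block it was 11 of 14, and for the surge genes above 5 of 16 were lower, against 6.65%.

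Extracellular matrix genes were higher too. Of 28 genes 19 were measured, 15 were above the control mean, and 10 were higher and 0 lower at an unadjusted p under 0.05 (8.40% of all genes were higher, and 50.6% above the control mean), with a median of 0.29 log2. Without control replicate 1, 7 were higher, against 3.12% of all genes. Col1a1, the main chain of type I collagen, read 3.93, 4.02 and 3.78 on controls and 3.93, 4.55 and 5.17 on exposed arrays, a difference of 0.64 ± 0.21 (adjusted p 0.253). Only replicate 1 at 60 mg/kg/day lay among the controls. Bgn, biglycan, was 0.43 ± 0.11 higher and Fbln1, fibulin, 0.79 ± 0.22 (adjusted p 0.196 and 0.211), each with 7 of 8 exposed arrays above all controls.

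Cell cycle genes were mostly higher. Of 28 measured genes 25 were above the control mean, and 14 were higher and 1 lower at an unadjusted p under 0.05 (8.40% and 6.52% of all genes). The median was 0.35 log2. The list's level was -0.95, -0.54 and -0.93 on the controls and -0.81, -0.50 and -0.29 (lowest, median, highest) on the exposed arrays. Control replicate 2 thus lay within the exposed range. The replication helicase gene Mcm3 read 0.80, 1.3 and 0.91 on controls and 1.33, 1.57 and 1.93 on exposed arrays. It was 0.56 ± 0.15 higher with no overlap (adjusted p 0.202). Tpx2, a spindle protein, was higher by the same 0.56 ± 0.15. Aurka, the mitotic kinase that Tpx2 activates, went the other way and read 2.86, 1.52 and 1.47 on controls against 0.52, 0.85 and 1.18 on exposed arrays, a difference of -1.13 ± 0.26 (adjusted p 0.178). Mki67, a proliferation antigen, read 1.12 on control replicate 2 against an exposed median of 1.06. Without control replicate 1, 3 genes were higher and 2 lower (3.12% and 3.98% of all genes).

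**Figure D3:**
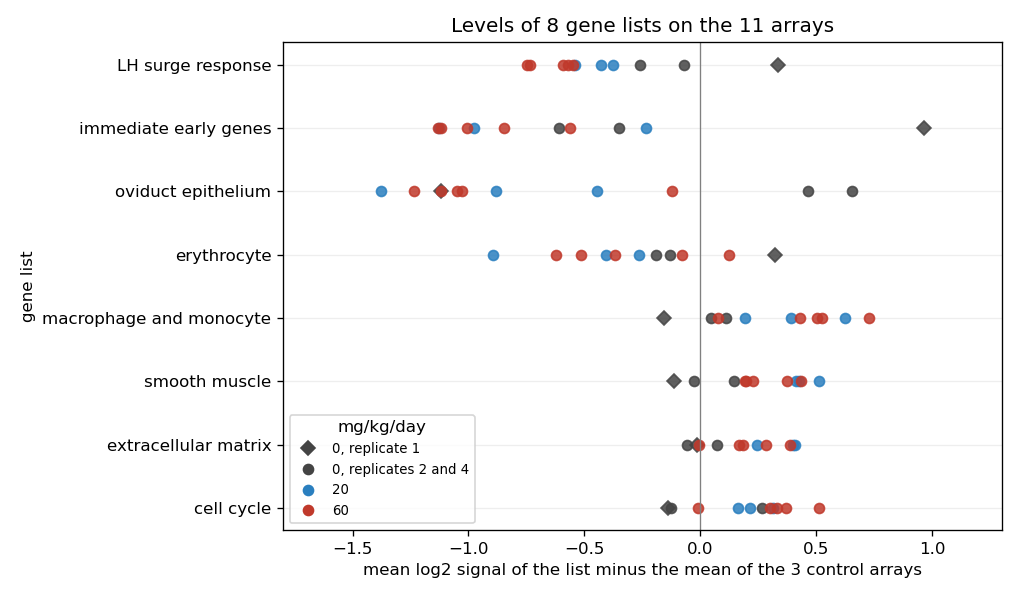
Mean log2 signal of 8 gene lists minus the mean of the 3 control arrays (horizontal axis) on the 11 arrays, coloured by dose in mg/kg/day. The diamond is control replicate 1, which is the highest array for LH surge and immediate early genes and the lowest for macrophage and smooth muscle genes.

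Markers of tissue next to the ovary also differed between arrays. All 15 measured genes of the oviduct epithelium list, of 22, were below the control mean, 3 of them at an unadjusted p under 0.05 (6.52% of all genes were lower), and the median was -0.81 log2. Leaving out control replicate 1, 9 were lower, against 3.98% of all genes, and the median was -1.37. The list's level was -2.56 and -2.37 on control replicates 2 and 4, -4.14 on control replicate 1, and -4.40, -4.06 and -3.15 on the exposed arrays. Control replicates 2 and 4 were therefore the highest 2 arrays. Foxj1, the master factor of motile cilia, read -6.87, -2.20 and -1.76 on the controls, and -3.03 on replicate 6 and -4.28 on replicate 4 of the 60 and 20 mg/kg/day groups, the highest exposed values. Tppp3 and Dnai2, both genes of ciliated cells, were -1.41 ± 0.38 and -1.3 ± 0.31 lower (adjusted p 0.203 and 0.185). The part of adjoining tissue in the other differences was not tested. Of 8 measured erythrocyte genes 7 were below the control mean, with a median of -0.56 (-0.26 without control replicate 1), and the list was highest on control replicate 1 at 0.45.

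Genes of steroid synthesis were close to the controls as a group, although the arrays were chosen on 2 enzymes of that pathway. Of 25 measured genes other than those 2, 15 were above the control mean, 5 were higher and 1 lower at an unadjusted p under 0.05 (8.40% and 6.52% of all genes), and the median was 0.08 log2. The counts were 1 and 1 without control replicate 1 (3.12% and 3.98% of all genes). Star, which brings cholesterol into mitochondria, was 0.33 log2 higher (95% interval -0.19 to 0.86), and Cyp11a1, the enzyme that cuts the cholesterol side chain, 0.21 higher (-0.10 to 0.52). Srd5a1, the steroid reductase that makes dihydrotestosterone, stood apart: it read -3.15, -2.18 and -2.60 on controls and -2.19, -1.18 and 0.25 on exposed arrays. Its difference was 1.5 ± 0.49 (adjusted p 0.256), and 7 of 8 exposed arrays were above all controls. Nr5a2, a nuclear receptor of granulosa and luteal cells, was 0.53 ± 0.13 higher with no overlap (adjusted p 0.186).

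Corpus luteum genes went both ways, with a median of -0.06 log2. Of 22 measured, 4 were higher and 2 lower at an unadjusted p under 0.05 (8.40% and 6.52% of all genes). Without control replicate 1, 3 were higher and 2 lower (3.12% and 3.98% of all genes). Bhmt, a methyl transferase of betaine metabolism, was 1.31 ± 0.38 higher (adjusted p 0.221). Igfbp3, a binding protein for insulin-like growth factors, read 4.57, 1.61 and 2.52 on controls and 1.16, 1.31 and 1.81 on exposed arrays, with control replicate 1 well above all others. Scarb1, the receptor that takes up cholesterol from lipoproteins, was 0.43 ± 0.17 higher (adjusted p 0.339). The receptors for LH, prolactin and prostaglandin F2 alpha, Lhcgr, Prlr and Ptgfr, had differences of -0.18 (-0.56 to 0.20), -0.10 (-0.42 to 0.22) and -0.65 (-1.45 to 0.15).

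In granulosa cells of growing follicles, 16 of 23 measured genes were below the control mean and the median was -0.17 log2. Inhba, the activin and inhibin subunit beta A, read 5.47, 4.72 and 5.00 on controls and 3.76, 4.04 and 4.98 on exposed arrays, a difference of -0.90 ± 0.25 (adjusted p 0.212). Inhbb, subunit beta B, differed by 0.11 (-0.28 to 0.49), Inha by -0.22 (-0.53 to 0.09), Amh by -0.46 (-1.08 to 0.16), Fst by 0.16 (-0.25 to 0.56) and Fshr by -0.17 (-0.59 to 0.24). The theca marker Insl3 differed by -0.41 (-1.12 to 0.29). Inhba was the gene of this hormone set whose interval left out 0.

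The oocyte genes Gdf9, Bmp15 and Zp3 had differences of 0.07 (-0.80 to 0.94), 0.02 (-0.63 to 0.68) and 0.09 (-0.67 to 0.85). Although 19 of 21 oocyte genes were above the control mean (50.6% of all genes), 0 were higher and 1 lower at an unadjusted p under 0.05. Over all genes, 8.40% were higher and 6.52% lower at that threshold. The list median was -0.26 at 20 and 0.37 at 60 mg/kg/day, 0.80 within slide 1 and -0.58 within slide 3. Kit, the receptor for stem cell factor on oocytes, theca and mast cells, was -0.97 ± 0.26 lower (adjusted p 0.2). Esr1, oestrogen receptor alpha, was 0.62 ± 0.18 higher with no overlap (adjusted p 0.225). Esr2, oestrogen receptor beta, differed by -0.10 (-0.43 to 0.23).

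Brominated flame retardants are studied for effects on xenobiotic, thyroid and oxidative stress pathways, and a list was described for each. Of 20 measured targets of AhR, CAR and PXR, the receptors that sense foreign chemicals, 2 were higher and 4 lower at an unadjusted p under 0.05 (30% of the list, against 14.9% of all genes). It was 1 higher and 2 lower without control replicate 1 (3.12% and 3.98% of all genes). Cyp1b1, an AhR target that hydroxylates oestrogens, read -3.91, -3.85 and -3.85 on controls and -3.37, -2.27 and -1.61 on exposed arrays. All exposed arrays were above the controls, by 1.54 ± 0.35 log2 or 2.90-fold (adjusted p 0.178). Ahrr, the AhR repressor and another AhR target, was lower by -1.15 ± 0.29 (adjusted p 0.196), and the receptor gene Ahr differed by -0.40 (-1.15 to 0.35). On the arrays at 0.06 mg/kg/day, Cyp1b1 read -2.08 on replicate 3 and -3.88 on replicate 5. Abcb1a and Abcb1b, drug efflux pumps, were lower by -0.93 and -0.63.

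**Figure D4:**
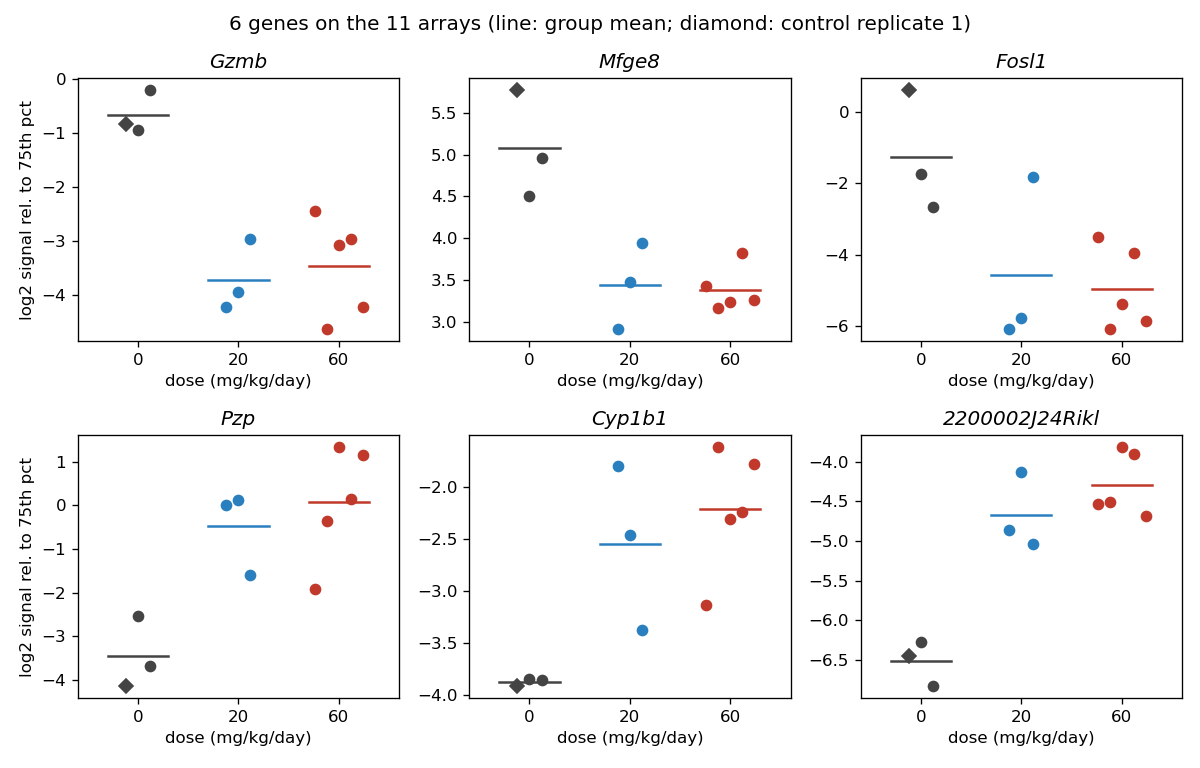
Log2 signal relative to the array's 75th percentile (vertical axes) of 6 genes on the 3 control arrays, 3 arrays at 20 and 5 at 60 mg/kg/day (horizontal axes), with group means as lines. Gzmb and Mfge8 are lower and Pzp, Cyp1b1 and 2200002J24Rikl higher on all 8 exposed arrays, while Fosl1 overlaps through 1 array at 20 mg/kg/day at -1.82.

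Of 29 antioxidant genes and NRF2 targets 20 were above the control mean, with a median of 0.10 log2. At an unadjusted p under 0.05, 5 were higher and 0 lower (8.40% and 6.52% of all genes). Without control replicate 1, 3 were higher, against 3.12% of all genes. Sod2, mitochondrial superoxide dismutase, was 0.72 ± 0.21 higher (adjusted p 0.227). Of 17 measured thyroid axis genes 1 was under the threshold, Rxrg, a retinoid X receptor, at 0.85 ± 0.24. Heat shock genes split: 4 of 17 were higher and 5 lower, or 52.9% under the threshold against 14.9% of all genes. The counts were 2 higher and 4 lower without control replicate 1 (3.12% and 3.98% of all genes). Hspd1 and Hspe1, the mitochondrial chaperonin pair, were 0.58 ± 0.19 and 0.57 ± 0.19 higher, and Hsp90aa1 and Dnaja1 of the cytosol -0.47 ± 0.12 and -0.58 ± 0.15 lower. In cholesterol synthesis, Idi1 read 4.25, 4.57 and 3.67 on controls and 2.57, 3.19 and 3.87 on exposed arrays, a difference of -0.95 ± 0.26 (adjusted p 0.212).

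Among signalling lists, 21 of 29 TGF-beta and BMP genes, 17 of 26 Wnt genes and 13 of 15 Notch genes were below the control mean, with medians of -0.10, -0.08 and -0.18 log2 and at most 4 lower at an unadjusted p under 0.05 in any of them. Tgfb1 was -0.56 ± 0.14 lower and Bmp7 0.69 ± 0.19 higher (adjusted p 0.196 and 0.205). Of 28 apoptosis genes 2 were lower and 0 higher; the executioner caspase gene Casp6 differed by -0.29 (-0.54 to -0.04), and the death receptor gene Fas by 0.41 (-0.08 to 0.90). Of 34 oxidative phosphorylation genes 28 were above the control mean, by a median of 0.05, with 2 under the threshold. Beside these counts, 8.40% of all genes were higher and 6.52% lower at that threshold.

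The pooled doses were then compared with each other. At 20 mg/kg/day 2029 probes (8.60%; 5.23% higher, 3.37% lower) and at 60 mg/kg/day 2600 probes (11%; 5.20% higher, 5.82% lower) were under an unadjusted p of 0.05 against the controls the doses share, and 0 passed after adjustment at either dose. With quantile normalization both splits turned, to 1044 higher and 1117 lower at 20 and 1591 higher and 1169 lower at 60 mg/kg/day. Between 60 and 20 mg/kg/day 967 probes (4.10%) were under it, 135 higher (0.572%) and 832 lower (3.53%) at 60, and 0 passed after adjustment (limma, Benjamini-Hochberg). The lean to lower values at 60 was not there with quantile normalization (429 higher, 469 lower) or with slide as a block (509 higher, 460 lower). Of the 24 named genes, 1, Scara5, had an unadjusted p under 0.05 between the doses, with 1.88 at 20 and 1.32 at 60 mg/kg/day. Pzp was 2.97 higher at 20 and 3.52 at 60 mg/kg/day, Gzmb -3.06 and -2.81 lower, and Cyp1b1 1.33 and 1.66 higher. These values give no order by dose beyond the spread of 3 and 5 arrays.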

How the data were processed

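Ovarian RNA was measured on 1-colour Agilent rat arrays of 62976 spots and 30367 probes. The deposited spot intensities are the processed signal of Feature Extraction 11.5.1.1 (protocol GE1_1105_Oct12), per the file headers. The authors' deposited value table holds log2 values of the same arrays; how it was normalized is not given in the sources used, its column medians ran from -0.0712 to 0.0797, and its baseline stays unknown. Set against the scanner values array by array, after removing each probe's mean, it gave r of 0.944 to 0.991.

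Here, values are log2 processed signal minus the log2 75th percentile over non-control spots of each array. Outlier spots were left out and spots of a probe averaged; 0 spots were saturated. Accessions were matched to RefSeq symbols of GRCr8: 18758 probes had 1 symbol, 0 several and 11609 none. The design names build rn4, so no array coordinates are given. Group means were fitted to the 11 arrays with limma 3.58.1 (R 4.3.3), with Benjamini-Hochberg adjustment at 0.05, and was tested on simulated data. Differences are exposed minus control with their SE or 95% interval; the number of arrays limits the precision.

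Arrays, genes and the 34 lists were chosen with earlier results of these data known. Named genes are the 12 of smallest p in each direction (1 probe per gene, regular symbol, well above background on all arrays of a group, no gene having passed), 25 fixed genes by their brightest probe, of which 24 were tested, and list members, mostly those of smallest p; others, such as Cd4, A2m, Plaur, Mki67, Foxj1 and 2200002J24Rikl, were chosen after their values were seen. Lists use the brightest probe per gene. Cyp17a1 and Akr1c3 are in no list.

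Alternatives were quantile normalization, normexp (offset 50), the value table, filters, slide, spike-in set or replicate number as a block, other variance estimates, each array left out, and, added after seeing the data, slides 1 and 3 only and values within each slide. The files hold no mean signal, so normexp used the median signal. Replicate numbers did not pair the arrays: over 8 same-numbered pairs, deviations correlated at -0.251 to 0.188. Replicates are single animals of independent litters, per the labels. Plots used Python 3.11.15 and matplotlib 3.10.9.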

Additional observations from a re-analysis of the deposited data

Results flagged for a closer look

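In 5 of 100 groups of exposed arrays examined for the named genes, 1 array stood apart from the others of its group by more than Dixon's 95% limit; chance gives about 1 in 20. Scara5 was lowest on replicate 1 at 60 mg/kg/day, at -6.59 against -5.93 on the next of the 5 arrays. Slc9a5 was lowest on the same array, at -2.20 against -1.76, and so was Col1a1, at 3.93 against 4.48. Among the 8 exposed arrays, replicate 4 at 20 mg/kg/day was the lowest for Tinagl1, at 0.73 against 1.08, and the highest for Fasn, at 1.69 against 1.35. In all 5 cases the array lay on the side of the controls.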

How the results depend on the processing

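The count of probes past the adjusted threshold in the pooled comparison was 0 and became 11 with quantile normalization, 10 with normexp, 5 with the authors' value table, 6 among probes well above background on every array, 1 with the replicate block, 23 with a trended robust variance and 3 with the spread from all 20 arrays. It stayed 0 with no filter, slide as a block, the spike-in set as a block, the mean of the dose means, and slides 1 and 3 only. Leaving out 1 array gave 0 to 70: 70 without control replicate 2, 30 without control replicate 1, 42 without the 20 mg/kg/day replicate 4 and 16 without the first of the 60 mg/kg/day replicates. At 60 mg/kg/day alone the count was 0 and became 1 with quantile normalization, 3 with the value table, 4 on every-array probes, 1 with slide as a block, 2 with the replicate block, 3 with the trended variance and 1 with the wider spread; leaving out 1 array gave 0 to 5. At 20 mg/kg/day, and between the doses, leaving out 1 array gave 0 to 1. Over all arrays of the 3 doses the count of 3 became 0 with quantile normalization, normexp or the every-array filter, 1 with slide or spike-in set as a block, and 0 to 11 with 1 array left out. The cause of these moves was not tested.

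Of the 24 named genes, 21 passed the adjusted threshold in at least 1 of the 22 or 23 settings run for each, Gzmc in 8 and Gzmb in 4. Pzp, Trim50 and Casp12 passed in 0. The genes were chosen by smallest p and the settings reuse mostly the same arrays, so these passes are no independent support. Several dim genes had much smaller differences in some settings. The smallest were -0.19 log2 for Wnt16, -0.11 for Nrcam and -0.12 for Spata2L. For Scara5, Acot4, Vegfd and Mdga2 they were 0.39, 0.40, 0.48 and 0.66. Of the 34 list medians 19 kept their sign in every setting. Differences near 0 turned: with the mean of the dose means Gdf9 was -0.022, Bmp15 -0.0041 and Zp3 -0.0072, and with the replicate block Bmp15 was -0.0093. With 1 array left out, the differences ran from -0.15 to 0.44 for Gdf9, -0.16 to 0.30 for Bmp15, -0.11 to 0.32 for Zp3, -0.29 to 0.10 for Prlr (turned without control replicate 2), -0.082 to 0.28 for Inhbb (without control replicate 4) and -0.68 to 0.086 for Ahr (without control replicate 1). Replicate numbers are shared in name only, and the replicate block moved the unadjusted count from 2928 to 2036.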

Other observations

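Of 24 measured interferon and antigen presentation genes, 19 were above the control mean with a median of 0.24 log2 (0.09 without control replicate 1), and 1 was higher and 0 lower at an unadjusted p under 0.05. Of 16 measured theca and interstitial genes, 6 were higher and 0 lower at that threshold, where 8.40% of all genes were higher; without control replicate 1, 1 was higher, against 3.12%. Among them Ephx2, soluble epoxide hydrolase, read -6.60 and -6.32 on control replicates 1 and 2 and -2.49 on control replicate 4, against -3.55, -2.46 and -1.82 on the exposed arrays; the controls thus differed among themselves by more than the groups did.

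Of 20 protease and inhibitor genes 3 were higher and 3 lower at an unadjusted p under 0.05 (8.40% and 6.52% of all genes). Without control replicate 1, 2 were higher and 1 lower (3.12% and 3.98% of all genes). Mmp2, a gelatinase of stroma, was 0.36 ± 0.14 higher and Mmp9, the other gelatinase, -0.95 ± 0.35 lower (adjusted p 0.328 and 0.304). Of 15 endothelial genes 11 were below the control mean, with Pecam1 lower by -0.39 ± 0.17 (adjusted p 0.372). Of 8 DNA methylation enzymes 0 were under the threshold, against 14.9% of all genes, with a median of -0.06. With 8 genes, this count says little about them.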
